A study of Homo sapiens with 5 samples.

Results

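Transcripts of 10 desmosome components (DSG2, DSG3, DSC2, DSC3, DSP, JUP, PKP1, PKP2, PKP3 and PERP) were compared between HaCaT keratinocytes labelled as AHNAK knockdown and control HaCaT cells. The members were chosen by gene symbol, with earlier results of these data known, and all 10 were found among the 27933 symbols of the table. There were 3 libraries of AHNAK knockdown cells (replicates 1, 2 and 3) and 2 control libraries (labelled NC, replicates 1 and 2). HaCaT is an established line of human keratinocytes, and cells of both groups were kept in DMEM with fetal bovine serum and antibiotics. Total RNA was sequenced, and the series title places AHNAK, a giant scaffold protein of the cell cortex, under oncostatin M receptor signalling in keratinocyte proliferation and differentiation. The column names begin with "si" for the knockdown libraries, the design text speaks of a knockout, and the labels give neither the reagent nor the time of treatment. Nothing in the labels says that replicates came from separate cultures, so p-values measure the spread between these libraries, which may be technical.

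Desmosomes are the rivets that hold keratinocytes together. In each of them, cadherins of the desmoglein (DSG) and desmocollin (DSC) families reach across the gap between cells, their tails bind the armadillo proteins plakoglobin (JUP) and plakophilins (PKP), and desmoplakin (DSP) ties this plaque to keratin filaments inside the cell. In epidermis the isoforms are layered, with DSG3 and DSC3 strongest in the basal cells, DSG1 and DSC1 in the upper layers, and DSG2 and DSC2 characteristic of simple epithelia and cultured keratinocytes.

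AHNAK itself was listed at 113.9, 69.6 and 115.3 FPKM in the 3 knockdown libraries, against 204.8 and 242.0 FPKM in the 2 control libraries. FPKM divides a gene's fragments by transcript length and by the library's mapped fragments, so levels can be compared between genes. The lowest AHNAK value was in knockdown replicate 2, and the groups did not overlap. On the log2(FPKM + 0.5) scale, used for all differences below, knockdown minus control was -1.19 for AHNAK (SE 0.24). This missed the threshold of 0.05 in the fit across all genes (limma, Benjamini-Hochberg adjusted p = 0.372). With array weights AHNAK was at -1.55 and passed (limma adjusted p = 0.0340). In that fit 11.7% of all genes tested passed. Knockdown replicate 2 carried a weight of 3.975 there, against 0.5298 and 0.2572 for knockdown replicates 1 and 3.

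Depth is unknown, since FPKM carries no read totals, and FPKM sums ranged from 386096.2 to 420540.9 in knockdown libraries and from 374214.8 to 391071.2 in control libraries. Low values of knockdown replicates 1 and 3 and control replicate 1 shared 1 set of value steps (set A), and those of knockdown replicate 2 and control replicate 2 shared another (set B). The labels describe no such sets, and within-set differences, which have no test, are given beside the results. Across all genes tested, deviations from the gene mean followed the GC content of the transcript in knockdown replicate 1 (Spearman's rho 0.629) and ran against it in knockdown replicate 3 (rho -0.56), while rho lay between 0.006 and 0.186 in the other 3 libraries. Keratinocyte markers were high in every library (summed 3956 to 5363 FPKM over 6 genes in knockdown libraries, and 5581 to 6852 FPKM in control libraries). Of 4 melanocyte, 4 leukocyte and 4 endothelial markers, 3 each stayed under 1 FPKM in every library, and TYR was listed at 0 in all 5. Fibroblast markers summed to 6.12 to 10.23 FPKM over 6 genes in knockdown libraries, against 3.30 to 5.02 FPKM in control libraries, and 3 of those 6 stayed under 1 FPKM in every library. The others disagreed: DCN (1.83 to 5.25 against 1.37 and 0 FPKM) and COL3A1 (1.67 to 2.87 against 1.51 and 0.83 FPKM) were higher in knockdown. COL1A1 was lower (1.28 to 1.78 against 1.94 and 2.47 FPKM). The part of these differences between libraries in the results below was not tested, except where a value after correction for GC content is given.

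All 10 desmosome genes were clearly expressed, with means over the 5 libraries from 20.4 FPKM (DSC2) to 371.8 FPKM (JUP). JUP, the plakoglobin that links cadherin tails to desmoplakin, stood above every other member in all 5 libraries, and 98.9% of the genes tested had a lower mean. PKP3 (176.4 FPKM), PKP1 (131.8 FPKM) and DSP (102.2 FPKM) came next. Their ranges over libraries overlapped from neighbour to neighbour, yet this order held inside each of the 5 libraries. DSG2 (69.3 FPKM), DSG3 (61.2 FPKM) and PERP (58.7 FPKM) overlapped in range, and so did PKP2 (23.9 FPKM) and DSC2 (20.4 FPKM) at the low end. DSG3 exceeded PERP in 4 of 5 libraries, as PKP2 exceeded DSC2. DSC3 (44.7 FPKM) lay wholly above PKP2.

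**Figure D1:**
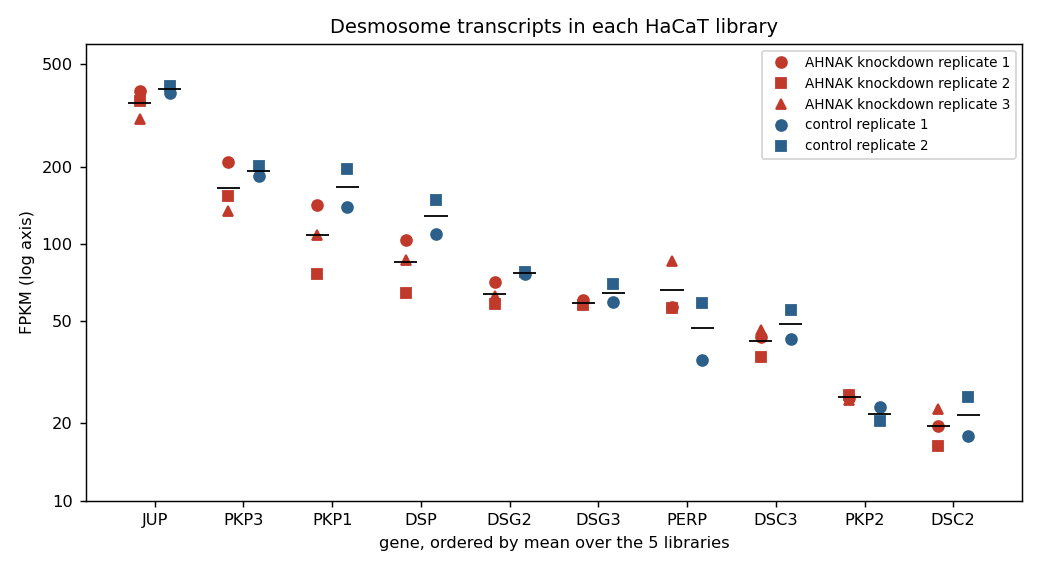
FPKM of the 10 desmosome genes in each library on a log axis, AHNAK knockdown (red) to the left of control (blue), with marker shape giving the replicate number and black lines the group means. JUP lies between 305.6 and 411.1 FPKM and DSC2 between 16.3 and 25.3 FPKM, and the knockdown and control values of 7 of the 10 genes overlap.

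In the comparison of knockdown with control, 8 of the 10 desmosome genes had a lower mean log2 level in knockdown cells and 2 (PKP2 and PERP) a higher level. Outside this list, the 2 other desmosome genes tested, DSG4 and PKP4, were above 0 (0.57 and 0.04). The median log2 difference was -0.20 over the 10 members, beside 0.01 over the 12196 genes tested, of which 48.7% were below 0. None passed the threshold: 0 of 10 members had a limma adjusted p (Benjamini-Hochberg over all genes tested) under 0.05, where the share over all genes tested was 0%. By unadjusted p under 0.05, 1 of 10 members (DSP) was called, beside 11.7% of all genes tested, and in the lower direction the same count stood beside 5.48%. DSP did not keep this call with the GC content and length correction (limma unadjusted p = 0.0776), with a replicate block (0.0512), with no filter (0.0528), without control replicate 2 (0.2095) or without knockdown replicate 2 (0.0871). The member called in its place was PKP2 in the corrected fit (0.0489) and PERP without control replicate 2 (0.0138), and 0 members were called in the other 3. Groups did not overlap for 3 of 10 members, beside 32.0% of all genes tested. DSG2 and DSP were the 2 with knockdown lower (15.8% of all genes tested), and PKP2 was the member with knockdown higher (16.2%). The counts of called and of non-overlapping members are near these background shares and are no result about desmosome genes. The summed level of the 10 members was 1124, 906 and 935 FPKM in knockdown replicates 1, 2 and 3, against 1073 and 1263 FPKM in control replicates 1 and 2. The sum in knockdown replicate 1 thus lay between the controls. In bulk RNA, fewer cells of a type and less RNA per cell cannot be told apart.

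**Figure D2:**
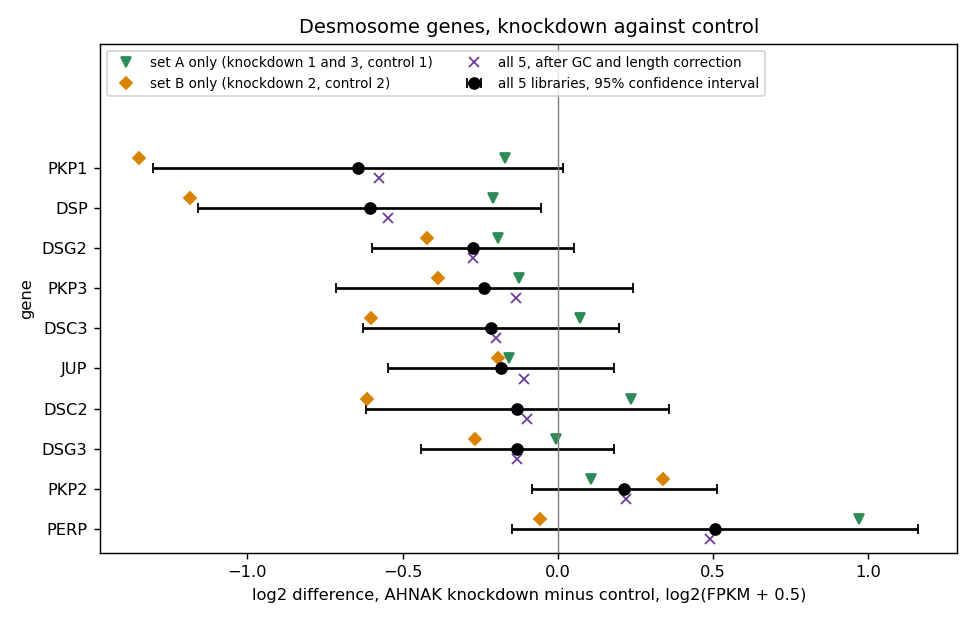
Differences in log2(FPKM + 0.5), AHNAK knockdown minus control, for the 10 desmosome genes: black points and bars are the limma estimate over all 5 libraries with its 95% confidence interval, triangles set A, diamonds set B and crosses the estimate after the GC and length correction. PKP1 (-0.64) and DSP (-0.61) lie furthest below 0 and PERP (0.51) furthest above it, and set B lies left of set A for every gene except PKP2.

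None of the 4 desmosomal cadherins among the members passed the threshold, and their 95% confidence intervals are wide. Their genes lie in 1 cluster on chromosome 18 (GRCh38, 30990008 to 31549008, 559.0 kb) with DSC3, DSC2 and DSC1 on the minus strand followed by DSG1, DSG4, DSG3 and DSG2 on the plus strand. DSG2 (ENSG00000046604.12), the desmoglein that simple epithelia also make, stood at 70.9, 58.2 and 62.8 FPKM in knockdown replicates 1, 2 and 3, against 76.4 and 78.0 FPKM in the controls. Every knockdown library lay below both controls, with a mean of 64.0 ± 6.4 FPKM (SD, n = 3) in knockdown and 77.2 ± 1.2 FPKM (SD, n = 2) in control. This was -0.27 on the log2 scale (SE 0.14, 95% confidence interval -0.60 to 0.05; limma adjusted p = 0.479), at -0.19 within set A and -0.42 within set B. DSG2-AS1, an antisense transcript, shares 171 exonic bases with DSG2 and averaged 0.235 FPKM; whether reads were counted by strand is not given in the sources used here.

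DSG3, the desmoglein of basal keratinocytes and the pemphigus vulgaris antigen, was at 60.4, 57.9 and 58.3 FPKM in knockdown replicates 1, 2 and 3, against 59.6 and 69.7 FPKM in the controls. The groups overlapped, because control replicate 1 sat among the knockdown libraries. Its log2 difference was -0.13 (95% confidence interval -0.44 to 0.18; limma adjusted p = 0.707), at -0.01 within set A and -0.27 within set B. It was -0.02 without control replicate 2 and -0.24 without control replicate 1.

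DSC3, the desmocollin of basal cells, was at 43.4, 36.3 and 46.1 FPKM in knockdown replicates 1, 2 and 3, against 42.6 and 55.3 FPKM in the controls. DSC2, the widely expressed desmocollin, was at 19.6, 16.3 and 22.7 FPKM in knockdown cells, against 17.8 and 25.3 FPKM in control cells. Both genes were lowest in knockdown replicate 2 and highest in control replicate 2, the 2 libraries of set B, and the groups overlapped. Their log2 differences were -0.22 and -0.13 (limma adjusted p = 0.640 for DSC3 and 0.815 for DSC2), with set A at 0.07 and 0.24 and set B at -0.60 and -0.62. Without control replicate 2 the DSC2 difference was 0.12 and the DSC3 difference -0.03, and without control replicate 1 they were -0.38 and -0.40. Without knockdown replicate 2 they were -0.01 (DSC2) and -0.12 (DSC3), and DSC2 was -0.24 without knockdown replicate 3.

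The balance of isoforms within a library does not depend on how the library was scaled, but it is not free of differences in GC content between the isoforms. DSG3 made up 46.0%, 49.9% and 48.1% of DSG2 plus DSG3 in knockdown replicates 1, 2 and 3, against 43.8% and 47.2% in the controls. DSC3 made up 68.9%, 69.0% and 67.0% of DSC2 plus DSC3 in knockdown libraries, against 70.5% and 68.6% in control libraries. The differences were 2.50 and -1.25 percentage points (2.44 and -1.45 after the GC content and length correction). With 1 library left out they ranged from 0.82 (without control replicate 1) to 4.19 (without control replicate 2) for DSG3 and from -2.20 (without control replicate 2) to -0.31 (without control replicate 1) for DSC3. Exact permutation tests over the 10 ways to label 3 of 5 libraries as knockdown, two-sided and unable to go below 0.1, gave p = 0.4 and 0.6 (0.5 and 0.6 after Benjamini-Hochberg adjustment over the 5 shares tested, plakophilins included).

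Among the armadillo proteins of the plaque, JUP (ENSG00000173801.16, chromosome 17, 41754604 to 41786931, minus strand) stood at 395, 359.7 and 306 FPKM in knockdown replicates 1, 2 and 3, against 387 and 411 FPKM in the controls. Knockdown replicate 1 lay between the controls and knockdown replicate 3 lay lowest. JUP differed by -0.18 on the log2 scale (95% confidence interval -0.55 to 0.18; limma adjusted p = 0.650), and by -0.11 once GC content and length had been corrected for, the JUP transcript having 61.5% GC. Without knockdown replicate 3 it was -0.08, and it was -0.16 within set A and -0.19 within set B.

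PKP1, a plakophilin that binds desmoplakin and keratins and whose loss causes ectodermal dysplasia with skin fragility, had the most negative log2 difference of the members. PKP1 (ENSG00000081277.12, chromosome 1, 201283452 to 201332993, plus strand) was at 141, 76.2 and 108 FPKM in knockdown replicates 1, 2 and 3, against 139 and 195 FPKM in the controls. It averaged 108.4 ± 32.5 FPKM (SD, n = 3) in knockdown and 166.8 ± 39.5 FPKM (SD, n = 2) in control, but knockdown replicate 1 lay above control replicate 1. PKP1 differed by -0.64 on the log2 scale (SE 0.28, 95% confidence interval -1.31 to 0.02; limma adjusted p = 0.438). Within sets A and B it was -0.17 and -1.35, and it was -0.41 without knockdown replicate 2 and -0.40 without control replicate 2.

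PKP3, the plakophilin found through all living layers of the epidermis, was at 208, 154 and 135 FPKM in knockdown replicates 1, 2 and 3, against 183 and 202 FPKM in the controls. Knockdown replicate 1 was above both controls and the other 2 knockdown libraries below both. PKP3 differed by -0.24 on the log2 scale (95% confidence interval -0.71 to 0.24; limma adjusted p = 0.655). PKP3 has the highest GC content of the members (66.7%), and after the GC content and length correction the difference was -0.13. It was -0.10 without knockdown replicate 3 and -0.41 without knockdown replicate 1, and within sets A and B it was -0.13 and -0.39.

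PKP2, the plakophilin of simple epithelia and heart muscle, went the other way. It was at 25.2, 25.9 and 24.8 FPKM in knockdown replicates 1, 2 and 3, against 23.1 and 20.4 FPKM in the controls. Every knockdown library lay above both controls, and the 3 knockdown values were close together (25.3 ± 0.56 FPKM, SD, n = 3, against 21.8 ± 1.96 FPKM, SD, n = 2, in controls). On the log2 scale this was 0.21 (SE 0.12, 95% confidence interval -0.08 to 0.51; limma adjusted p = 0.539), at 0.11 within set A and 0.34 within set B, and 0.13 without control replicate 2. After the GC content and length correction it was 0.22 with an unadjusted p of 0.0489 (limma adjusted p = 0.2696).

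As shares of the 3 plakophilins, PKP1 made up 37.7%, 29.7% and 40.3% in knockdown replicates 1, 2 and 3, against 40.3% and 46.7% in the controls. PKP2 made up 6.73%, 10.1% and 9.26% in knockdown libraries, against 6.71% and 4.89% in control libraries. Every knockdown library thus had a higher PKP2 share than both controls, although knockdown replicate 1 and control replicate 1 were nearly equal. PKP3 made up the rest, 55.6%, 60.2% and 50.4% in knockdown libraries, against 53.0% and 48.4% in control libraries. The differences in share were -7.58, 2.90 and 4.68 percentage points for PKP1, PKP2 and PKP3 (exact permutation p = 0.3, 0.2 and 0.4, each 0.5 after adjustment over the 5 shares). With 1 library left out they ranged from -10.8 (without control replicate 1) to -4.34 (without control replicate 2) for PKP1, from 1.99 (without control replicate 2) to 3.88 (without knockdown replicate 1) for PKP2 and from 2.30 (without knockdown replicate 2) to 7.17 (without knockdown replicate 3) for PKP3. After the GC content and length correction the differences were -7.91, 2.48 and 5.43 points for PKP1, PKP2 and PKP3.

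**Figure D3:**
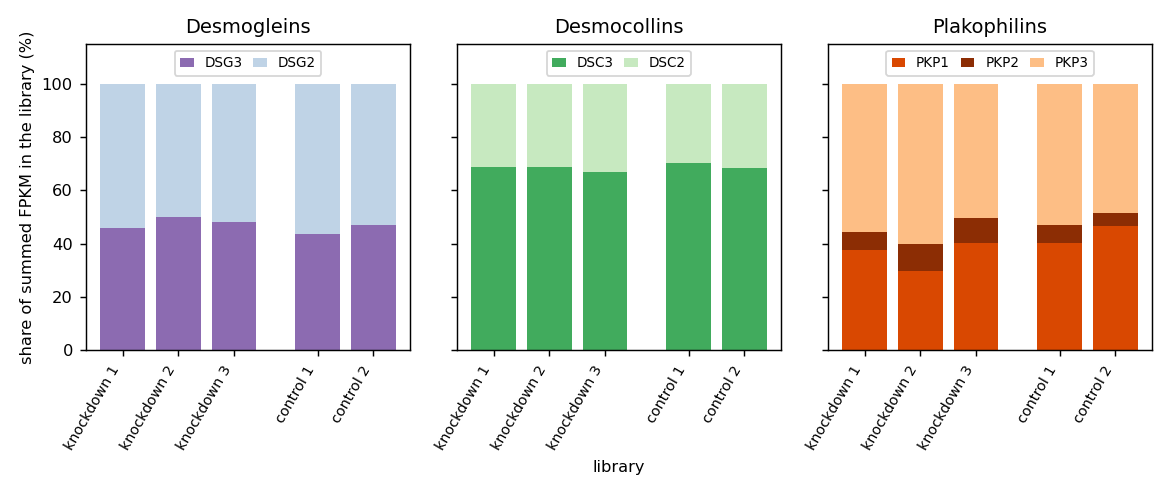
Stacked bars of the share of summed FPKM in each library taken by the 2 desmogleins, the 2 desmocollins and the 3 plakophilins, with the 3 AHNAK knockdown libraries left of the 2 control libraries. DSC3 takes 67.0% to 70.5% of the desmocollins in every library, whereas PKP1 takes between 29.7% (knockdown replicate 2) and 46.7% (control replicate 2) of the plakophilins.

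DSP, the plakin that anchors keratin filaments to the plaque, was the member of smallest p. DSP (ENSG00000096696.13, chromosome 6, 7541575 to 7586717, plus strand) was at 103, 64.6 and 86.2 FPKM in knockdown replicates 1, 2 and 3, against 109 and 148 FPKM in the controls. Every knockdown library lay below both controls, by a narrow margin for knockdown replicate 1 against control replicate 1, with a mean of 84.8 ± 19.4 FPKM (SD, n = 3) in knockdown, 0.660 of the control mean of 128.4 ± 27.3 FPKM (SD, n = 2). DSP differed by -0.61 on the log2 scale (SE 0.23, 95% confidence interval -1.16 to -0.05; unadjusted p = 0.0359, limma adjusted p = 0.406). Within sets A and B it was -0.21 and -1.19, and it was -0.43 without knockdown replicate 2 and -0.39 without control replicate 2. Array weights (limma) counted knockdown replicate 2 at 3.975 and replicate 3 at 0.2572, and with them DSP (-0.87, limma adjusted p = 0.0419) and PKP1 (-0.98, limma adjusted p = 0.0460) passed, 2 of 10 members beside 11.7% of all genes tested.

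PERP, a small tetraspan membrane protein that p63 switches on and that desmosome assembly requires in mouse skin, had the largest positive difference. PERP (ENSG00000112378.11, chromosome 6, 138088505 to 138107511, minus strand) was at 56.8, 56.4 and 86.1 FPKM in knockdown replicates 1, 2 and 3, against 35.4 and 58.8 FPKM in the controls. The groups overlapped, since control replicate 2 lay above knockdown replicates 1 and 2. PERP differed by 0.51 on the log2 scale (SE 0.28, 95% confidence interval -0.15 to 1.16; limma adjusted p = 0.510). Within sets A and B it was 0.97 and -0.06, and it was 0.15 without control replicate 1, the library of lowest PERP, 0.87 without control replicate 2 and 0.31 without knockdown replicate 3.

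DSP and PKP1, which carry the most negative differences, and PERP, with the most positive, have the following sequence upstream of their starts (RefSeq, GRCh38.p14), shown 5′ to 3′ and ending where either RefSeq or GENCODE places the first base of the gene. Capitals mark matches on either strand to the GC box GGGCGG, to the E-box CACCTG and to the AP-1 motif TGANTCA.
DSP: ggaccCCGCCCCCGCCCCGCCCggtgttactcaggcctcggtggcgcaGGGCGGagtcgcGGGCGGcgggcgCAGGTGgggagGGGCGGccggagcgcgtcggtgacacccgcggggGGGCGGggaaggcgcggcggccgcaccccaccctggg
PKP1: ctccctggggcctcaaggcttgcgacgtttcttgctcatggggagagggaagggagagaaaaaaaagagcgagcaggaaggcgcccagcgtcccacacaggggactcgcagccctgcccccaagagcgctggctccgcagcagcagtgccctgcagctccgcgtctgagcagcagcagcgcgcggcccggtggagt
PERP: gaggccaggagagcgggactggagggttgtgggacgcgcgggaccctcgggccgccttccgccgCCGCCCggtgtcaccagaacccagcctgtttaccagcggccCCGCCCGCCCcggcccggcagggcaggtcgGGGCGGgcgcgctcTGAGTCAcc
The stretches are chr6:7541421-7541574, plus strand for DSP, chr1:201283256-201283451, plus strand for PKP1 and chr6:138107512-138107669, minus strand for PERP. DSP held 7 matches to GGGCGG, overlapping ones included, and 1 to CACCTG in 154 bases. PERP held 4 matches to GGGCGG and 1 to TGANTCA in 158 bases, and PKP1 held 0 in 196 bases. In the full 250 bases before the RefSeq start, 8 of the 10 members matched a promoter entry (all but PKP2 and PKP3). GGGCGG was found in 6 of these 8 (DSG2, DSC2, DSP, JUP, PKP1 and PERP), beside 42.6% of 35116 promoters. CACCTG was found in 3 (DSG2, DSC2 and DSP), beside 17.5%, and TGANTCA in PERP alone, beside 6.57%. The grainyhead motif AACNGGTT (1.49% of promoters) and TATAAA (10.7%) were found in 0 of the 8. A match is a description of letters and not a binding site.

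The members did not vary as 1 block across libraries. Likeness was measured as the root mean square distance between log2 deviations from the gene's own mean over the 5 libraries. The closest pairs were DSP with PKP1 (0.07), DSC2 with DSC3 (0.07), JUP with PKP3 (0.11) and DSG2 with DSG3 (0.12). The most distant were PERP with PKP1 (0.66) and PERP with DSP (0.62). No background of distances over all gene pairs was taken. The distance is not scaled, so genes that moved little lie close whatever their direction: DSG3 lay nearer to PKP2 (0.21) than DSC3 to DSP (0.24). Deviations were not corrected for GC content here. GC content was 38.9% and 39.9% for DSC2 and DSC3, 42.0% and 42.4% for DSG2 and DSG3, and 61.5% and 66.7% for JUP and PKP3. It was 47.9% and 56.4% for DSP and PKP1. The part of GC content in these distances was not tested. Genes outside the desmosome, given below, lay nearer to DSP and to PKP1 than these 2 lay to each other. Control replicate 2 held the highest value of 7 of the 10 members and knockdown replicate 2 the lowest of 6. The median deviation of the members was 0.06, -0.21 and -0.10 in knockdown replicates 1, 2 and 3, against 0.02 and 0.20 in control replicates 1 and 2, while that of all genes tested stayed between -0.004 and 0.0084. In set B, 9 of 10 members were lower in knockdown (all but PKP2, median -0.40; 49.9% of all genes tested below 0), and in set A 6 of 10 (median -0.07; 51.4% of all genes tested).

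The deviations of the members followed base composition in knockdown replicate 1 and ran against it in knockdown replicate 3. They had little relation to it in knockdown replicate 2 and control replicate 2, the libraries of set B. Over the 10 members, which range from 38.9% GC (DSC2) to 66.7% GC (PKP3), the deviation in a library ranked with GC content at Spearman's rho of 0.939 in knockdown replicate 1 and -0.867 in knockdown replicate 3. In knockdown replicate 2 rho was 0.055, and it was 0.588 and 0.03 in control replicates 1 and 2. All 10 points of a library share its preparation and depth, so these values are descriptions. With GC content and length corrected for in every library, rho was 0.2, 0.055 and -0.527 in knockdown replicates 1, 2 and 3, against 0.6 and -0.103 in control replicates 1 and 2. In that fit 8 of 10 members were still lower in knockdown, and DSP, PKP1 and PERP differed by -0.55, -0.58 and 0.49 on the log2 scale (limma adjusted p = 0.3165, 0.3342 and 0.3391).

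**Figure D4:**
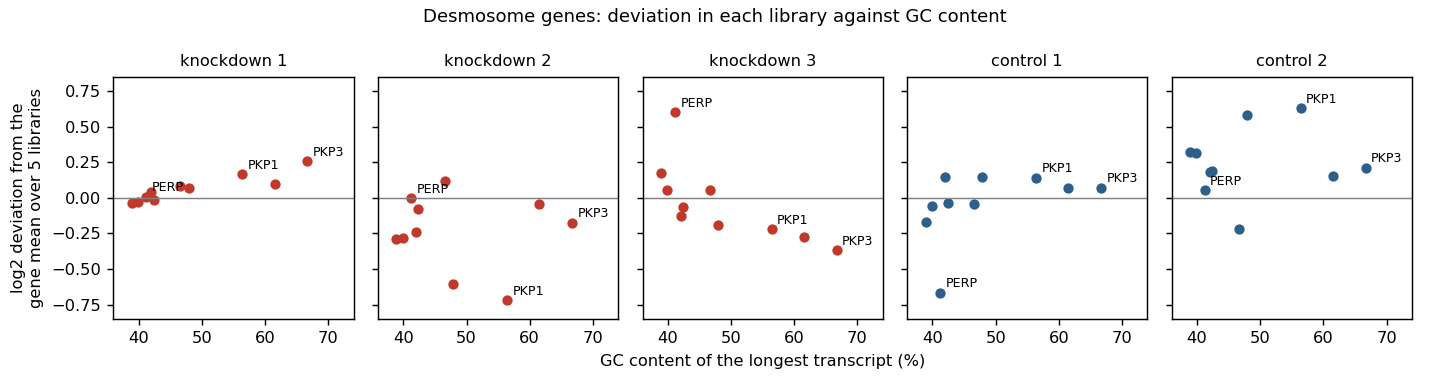
Log2 deviation of each of the 10 desmosome genes from its mean over the 5 libraries (vertical axis) against the GC content of its longest GENCODE transcript in percent (horizontal axis), in 1 panel per library, with knockdown in red and control in blue. The points climb with GC content in knockdown replicate 1 (rho 0.939) and descend in knockdown replicate 3 (rho -0.867), and PERP lies at -0.67 in control replicate 1 and 0.60 in knockdown replicate 3.

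By the same distance over 5 libraries, the genes outside the desmosome with the pattern most like that of DSP were ITM2C (0.03), ZNF503 (0.04) and HIC2 (0.04), and those most like PKP1 were TLE2 (0.03), ABTB1 (0.05) and KIFC2 (0.06). All 6 lay at 2.38 to 26.18 FPKM on average, far below DSP and PKP1.

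The isoforms of the upper epidermis were nearly silent in these cells. DSG1, the desmoglein of the upper layers, lay at 0.162 to 0.186 FPKM in knockdown libraries, against 0.133 and 0.173 FPKM in control libraries. DSC1 was at most 0.134 FPKM in any library, and CDSN (corneodesmosin, which seals the junctions of the cornified layer) at most 0.056 FPKM. These 3 were under the level needed for testing. DSG4, a desmoglein best known from hair, was at 1.48, 2.86 and 1.73 FPKM in knockdown replicates 1, 2 and 3, against 1.43 and 0.92 FPKM in the controls. Its groups did not overlap, and the log2 difference was 0.57 (limma adjusted p = 0.471), at 0.12 in set A and 1.24 in set B. With array weights DSG4 was at 0.90 and passed (limma adjusted p = 0.0494), as did 11.7% of all genes tested. PKP4, an armadillo relative of the plakophilins, was at 26.0, 29.9 and 26.0 FPKM in knockdown cells, against 28.6 and 24.4 FPKM in control cells (log2 difference 0.04).

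Of the keratins that desmosomes anchor, 14 of 15 were tested, 6 higher and 8 lower in knockdown, and 0 passed over all genes. By unadjusted p under 0.05, 2 were higher (6.22% of all genes tested) and 3 lower (5.48%). KRT14, a basal keratin, was at 2096, 1184 and 1814 FPKM in knockdown replicates 1, 2 and 3, against 2337 and 3072 FPKM in the controls. As for DSP and PKP1, its lowest value was in knockdown replicate 2 and its highest in control replicate 2. The log2 difference was -0.70 (limma adjusted p = 0.406), beside -0.23 for its partner KRT5 (adjusted p = 0.628). KRT14 was at -0.46 without knockdown replicate 2 and passed with array weights (-1.05, limma adjusted p = 0.0398), and KRT5 was at -0.06 without control replicate 2 and -0.39 without control replicate 1. The keratins of smallest p were the wound-induced KRT6A (-1.01) and KRT17 (-0.81), with limma adjusted p of 0.376 and 0.383. With array weights these also passed (KRT6A -1.29, KRT17 -1.08, limma adjusted p = 0.0340 each), as did 11.7% of all genes tested. The 2 keratins higher by unadjusted p, named after their values were seen, were KRT15, another basal keratin (0.53, limma adjusted p = 0.389), and KRT4, a mucosal keratin (0.54, limma adjusted p = 0.387), each with no overlap between groups and positive in both sets. KRT6A, KRT14 and KRT17 have near-identical copies with which reads may be shared.

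Adherens junction genes, the classical cadherin system beside desmosomes, showed no shared direction, with 4 of 10 higher and 6 lower, 0 passing over all genes and a median log2 difference of -0.02. CDH1 (E-cadherin) differed by 0.15, CDH3 (P-cadherin) by -0.04 and CTNNB1 (beta-catenin) by -0.01. CTNND1 (p120-catenin) was listed at only 1.81 to 1.98 FPKM in knockdown cells and 2.16 to 2.35 FPKM in control cells (-0.19). CTNND1 shares 321 exonic bases with the readthrough gene TMX2-CTNND1, which averaged 0.002 FPKM, and 289 with AP001931.1, which has no value here. How reads on shared bases were assigned is not given, so the CTNND1 value is uncertain. The members of smallest p were VCL (vinculin, which couples catenins to actin; -0.41, limma adjusted p = 0.394) and NECTIN2 (-0.27, adjusted p = 0.518).

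Of 12 kinases, proteases and other proteins that act on desmosomes, 11 were tested, 4 higher and 7 lower, and 0 passed over all genes. EGFR, whose signalling loosens desmosomes, was at 59.7, 49.2 and 37.2 FPKM in knockdown replicates 1, 2 and 3, against 73.3 and 71.3 FPKM in the controls. Every knockdown library lay below both controls (log2 difference -0.59, limma adjusted p = 0.394). PRKCD, a protein kinase C, was at 13.8, 18.8 and 13.8 FPKM in knockdown cells, against 12.4 and 11.1 FPKM in control cells (0.37, adjusted p = 0.471). With array weights EGFR (-0.54, limma adjusted p = 0.0398) and PRKCD (0.58, limma adjusted p = 0.0435) passed, as did 11.7% of all genes tested.

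Of 9 transcription factors of desmosomal and epidermal genes, 8 were tested, 3 higher and 5 lower, and 0 passed over all genes. TP63, the epithelial master regulator that controls PERP, was at 34.0, 30.7 and 34.4 FPKM in knockdown replicates 1, 2 and 3, against 37.1 and 42.8 FPKM in the controls. All knockdown libraries lay below both controls, as for 15.8% of all genes tested (log2 difference -0.27, limma adjusted p = 0.482). A link between TP63 and PERP levels was not tested. GRHL3, a grainyhead factor of epidermal differentiation, was at 8.91, 9.90 and 8.12 FPKM in knockdown cells, against 13.1 and 12.3 FPKM in control cells (-0.48, limma adjusted p = 0.387).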

How the data were processed

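RNA of 5 HaCaT libraries (3 AHNAK knockdown, 2 control, grouped by their titles) was read from 1 table of FPKM values deposited by the authors, with 1 column per library. HISAT2 2.0.1 and StringTie 2.0.6 were used, and the builds GRCh38 and mm9 are named without a role, per the submitters' processing notes. The annotation, and whether strand was used, is not given in these sources, and read depth is unknown, so counting intervals were not computed.

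Genes whose mean over libraries reached 1 FPKM (12196) were fitted on log2(FPKM + 0.5) with limma 3.58.1 in R 4.3.3 (lmFit, eBayes with trend, no covariate, two-sided, Benjamini-Hochberg over all genes tested, threshold 0.05). The filter kept all 10 members. The log2 scale with a pseudocount understates changes of low genes. The fit was tested on simulated data with independent normal noise. Those data lacked the sets and the GC content trends of these libraries, so they cannot vouch for the p-values given here. Libraries were put in 1 set where the most frequent ratio of values under 0.3 FPKM held for at least 10% of low genes. GC content and length came from the longest GENCODE 29 transcript of each symbol (93.8% of genes tested), and loess (span 0.3) removed both in an alternative. Other alternatives were pseudocounts, filters, scalings, variance models, array weights, a replicate block, a set term and each library left out. Genes named were AHNAK, the 10 members, a fixed set of relatives, the 2 of smallest p of each pathway list, and the 3 nearest in pattern to each of the 2 members of smallest p. The members and lists were chosen with earlier results of these data known.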

Additional observations from a re-analysis of the deposited data

How the results depend on the processing

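Member differences kept their sign in 179 of 180 alternative fits. The exception was DSC2 without control replicate 2 (range with a library left out -0.38 to 0.1181). Past the threshold were 2, DSP and PKP1 with array weights. The filters, the fit without trend and robust eBayes leave each estimate as it is, so they could not turn a sign. Knockdown replicate 3 has no control of its number, so the replicate block takes no estimate from it. Estimates with the block therefore equal those without knockdown replicate 3 (DSP -0.6317 and PKP1 -0.6626 in both), and the count holds them under both names. All fits draw on the same 5 libraries. Within-set differences are not among them: DSC2 (0.24) and DSC3 (0.07) were above 0 in set A, and PERP (-0.06) was below 0 in set B. Members with unadjusted p under 0.05 numbered 1 of 10. They numbered 0 with no filter (1981 of 20410 genes called) and with a replicate block (977 of 12196). They numbered 2 with a mean FPKM of at least 5 (862 of 8677), equal FPKM sums (1332 of 12196) and quantile normalization (1435 of 12196). The count was also 2 with the set term (828 of 12196) and the GC content and length correction with replicate block (1179 of 11438). With array weights it was 5, where 4285 of 12196 genes were called. It was 4 without knockdown replicate 1 (17.2% of all genes called), 0 without knockdown replicate 2 (740 genes called) and 1 without knockdown replicate 3 (1772 genes called). Genes past the threshold over all genes numbered 0, against 1 with a pseudocount of 1, without trend or with robust eBayes, 1428 with array weights, and 0 to 9 with a library left out (9 without control replicate 1). Genes with unadjusted p under 0.05 numbered 1427 (759 higher, 668 lower), against 862 with a mean FPKM of at least 5, 828 with the set term, 4285 with array weights, and 564 to 2092 with a library left out (690 and 564 without control replicates 1 and 2, 740 without knockdown replicate 2). With equal FPKM sums 512 were higher and 820 lower. The cause of these moves was not tested, except that the filter at 5 FPKM left 8677 genes.

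For the same-numbered libraries, deviations from the group means correlated at -0.064 (replicates 1) and -0.578 (replicates 2). With 2 controls, the deviations of 1 mirror those of the other, so these values cannot tell whether the numbers pair libraries. Same-numbered libraries did share a set, A for replicates 1 and B for replicates 2. With the replicate block 977 genes had an unadjusted p under 0.05 (limma). A sign turned with the block alone and without knockdown replicate 3 is 1 and the same estimate. Among other genes named, these turned sign. PKP4 (0.04) was at -0.0129 with equal FPKM sums and at -0.0715 to 0.1531 with a library left out (-0.0249 without knockdown replicate 2), and CDH1 (0.15) at -0.0255 to 0.3205 with a library left out, lowest without control replicate 2. CDH3 (-0.04) was at 0.1232 with array weights, 0.074 with the replicate block, 0.006 after GC content and length correction (0.0441 with the block too) and -0.171 to 0.0963 with a library left out, above 0 without control replicate 1 or knockdown replicate 3. CTNNB1 (-0.01) was at 0.0697 with array weights, 0.029 with the block, 0.0369 with the block after GC content and length correction, and -0.0732 to 0.0605 with a library left out, above 0 without control replicate 1, knockdown replicate 1 or knockdown replicate 3. Unknown depth limits the precision of low genes such as DSG1 and DSC1.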
